A study of Caenorhabditis elegans with 18 samples.

Results

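Embryos carrying either of 2 rbm-5 mutations, n5132 or n5119, were compared with each other while uaf-1 was intact. The comparison rests on 6 of the 18 RNA-seq libraries of the series, 3 from the strain rbm-5(n5132) and 3 from the strain rbm-5(n5119), chosen by their strain labels alone. The 3 wild-type libraries stand beside them, and both alleles were sequenced again in a strain that also carries uaf-1(n4588), with 3 libraries for each double mutant. The strain uaf-1(n4588) alone, with 3 libraries, completes the series. Culture was at a constant temperature, and the eggs were released from synchronized adults by bleach. The labels name no drug. Each allele is represented by 1 strain, and neither its base change nor the independence of the 3 cultures behind a strain is stated, so p-values measure only the spread between these libraries.

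RBM-5 is an RNA-binding protein whose human homologue, RBM5, takes part in the choice of splice sites and in the early steps of spliceosome assembly. U2AF recognises the 3′ end of an intron, the large subunit (UAF-1 in the worm) binding the pyrimidine tract and the small subunit the terminal AG. When a 3′ splice site is not used, the intron can stay in the transcript, a neighbouring exon can be skipped, or another acceptor nearby can take its place. The series title places RBM-5 as a modifier of splicing that depends on the large U2AF subunit.

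The deposited values were FPKM (fragments scaled by transcript length and by the number of mapped fragments) of transcript starts, transcript ends and alternative splicing events, 1 list per library. The 6 libraries listed 53772–55361 entries each, and read depth is unknown because FPKM values do not give it. In replicate 1 the 10 highest starts held 31.8% of summed start FPKM in rbm-5(n5119) and 21.3% in rbm-5(n5132). In replicates 2 and 3 of both alleles they held 8.45–11.8%. Replicate 1 of the other strains was likewise high, at 24.3–43.7%. The library rbm-5(n5119) replicate 3 stood apart in its low values. In it 33.7% of entries were at 0 FPKM, against 28.3–29.7% in the other 5, and the median transcript start was at 0.578 FPKM, against 1.495–2.33. Over 9870 genes (not independent replicates), Spearman's rho was 0.832–0.861 for the 5 pairs that include this library and 0.874–0.902 for the 10 pairs that do not. Between alleles it was 0.832–0.892, a range that overlaps the 0.836–0.874 within rbm-5(n5119) and lies below the 0.894–0.902 within rbm-5(n5132).

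In the mutated gene itself, 1 intron retention event was listed in all 3 libraries of one allele and in no library of the other. A form of rbm-5 (T08B2.5, I:6215727–6219912, plus strand, WBcel235) that keeps its second intron appeared in the lists of the 3 rbm-5(n5132) libraries, at 64.6, 19.2 and 21.4 FPKM. In each of them the spliced alternative was listed at 0, so the share of the form with the intron was 1. That share covers only the forms paired in this event. The last transcript end of rbm-5 was higher in the same libraries, at 101, 48 and 72.2 FPKM. A share of 1 therefore does not mean that all rbm-5 transcripts kept the intron. No rbm-5(n5119) library and no wild-type library listed this event. Among the double mutants it was listed in 2 of the 3 libraries with n5132, at 91.7 and 18.1 FPKM, and in none with n5119. It was also absent from the 3 lists of uaf-1(n4588), so 5 of 18 libraries listed it, each of them labelled as carrying n5132. In the remaining library with n5132, and in wild-type replicate 2, rbm-5 shared a locus with the neighbouring gene T08B2.15, so its level was not taken singly there.

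The retained intron runs from the end of exon 2 (I:6215987) to the start of exon 3. Exon 3 has a pair of annotated starts, at 6216059 in 1 of 7 transcripts and at 6216062 in the other 6, which gives introns of 71 and 74 bases. Retention was listed against both acceptors with the same values, and both are the same form with the intron. An event that is not listed is not an event measured at 0, and the listing was not tested.

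The fourth exon of rbm-5 also has a pair of acceptors, 63 bases apart, with exons I:6216296–6216591 and I:6216359–6216591. The upstream acceptor took a share of 0.833, 1 and 0.637 in rbm-5(n5132). It took 0.480 in the single rbm-5(n5119) library that listed the pair, and 0.539 and 0.519 in 2 wild-type libraries. In the double mutant with n5132 the shares were lower, at 0.467 and 0.335. The intron after that exon (I:6216591–6216678) was listed as retained in 2 wild-type libraries and in rbm-5(n5119) replicate 2, with the intron form at 13.3, 12.1 and 10.6 FPKM, and in no library of rbm-5(n5132). In rbm-5(n5132) replicates 2 and 3 an early transcript end, at 6218976 and 6218068, carried the same FPKM as the form with the second intron (19.2 and 21.4). No library of wild type or rbm-5(n5119) listed such an end above 0.

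The libraries of both alleles overlapped in the level of rbm-5, by transcript starts and by the last transcript end. Summed over transcript starts it was 24.7, 29.8 and 32.7 FPKM in rbm-5(n5119) and 64.6, 19.2 and 21.4 FPKM in rbm-5(n5132), with 30.7 and 33.7 FPKM in the 2 wild-type libraries that listed the gene singly. By starts the groups overlapped because 1 rbm-5(n5132) library lay above and 2 lay below all rbm-5(n5119) libraries. At the last transcript end the level was 50, 54.4 and 77.1 FPKM in rbm-5(n5119) and 101, 48 and 72.2 FPKM in rbm-5(n5132). Each of these values was above the start value of its library, so the start rows may not hold the whole level. The log2 difference of the start level, n5132 minus n5119, was 0.05 (SE 0.55, 95% interval −1.15 to 1.25, adjusted p = 0.989, limma). Its sign turned without rbm-5(n5132) replicate 1 (log2 −0.49), without rbm-5(n5119) replicate 1 (log2 −0.058) and under rescaling of the libraries.

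**Figure D1:**
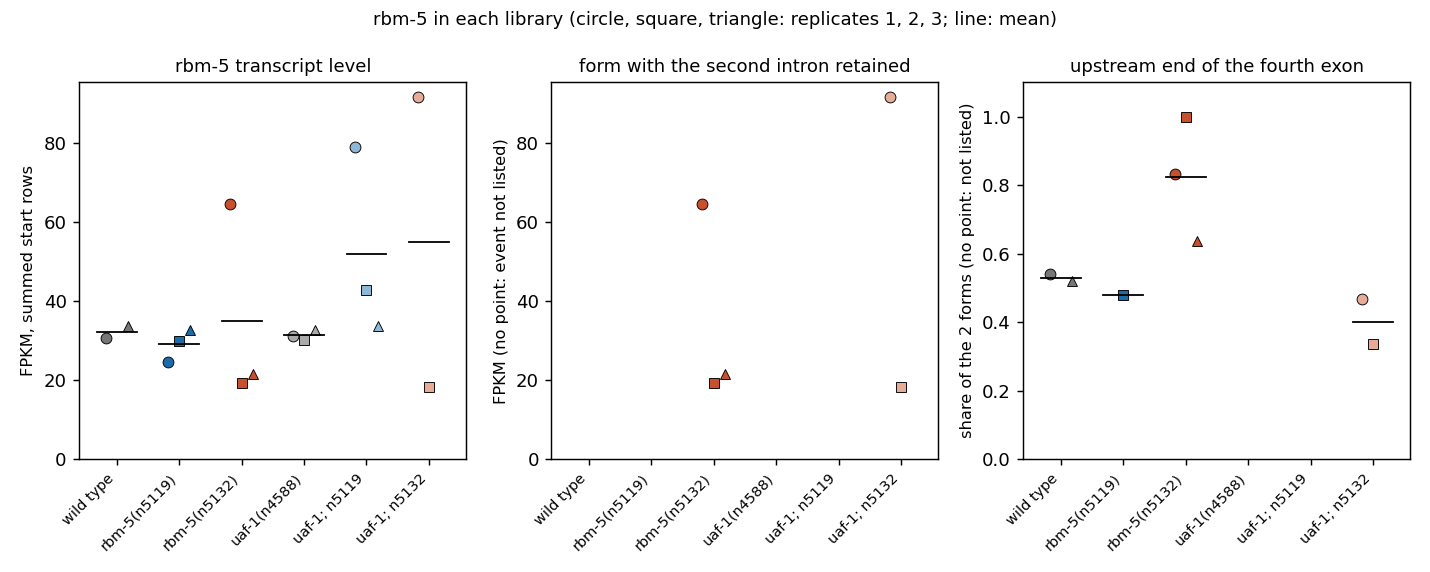
Values of rbm-5 in each library of the 6 strains: transcript level from start events (FPKM, left), FPKM of the form that retains the second intron (centre) and share of the upstream acceptor of the fourth exon (right). Points are libraries, black lines are means, and a missing point means that the event or gene was not listed. The form with the intron appears in 5 libraries, at 18.1–91.7 FPKM, all of them strains with n5132.

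Of 8513 genes tested on the log2(FPKM + 1) scale, 1 was called at an adjusted p under 0.05 (0.0117%), and 413 (4.85%) had an unadjusted p under 0.05. The 95% interval of a difference had a median half-width of 1.02 on the log2 scale, or 2.03-fold. For 2237 genes (26.3%) the whole interval lay within 1 log2 unit on either side of 0. For 24 genes it lay wholly beyond 1 log2 unit, before any adjustment for the number of genes, and for the rest the data do not show whether the alleles differ by that much. Among 6250 genes listed in all 6 libraries, the 3 values of one allele lay wholly above those of the other in 647 (10.4%), with rbm-5(n5132) higher in 540 (8.64%) and lower in 107 (1.71%).

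That direction depended on scaling. The median log2 difference over all tested genes was 0.26, and 352 of the 413 genes at an unadjusted p under 0.05 were higher in rbm-5(n5132), against 61 lower. Without rbm-5(n5119) replicate 3 the median was 0.12, with 351 genes higher and 106 lower. With the libraries scaled to 1 median it was −0.34, with 150 genes higher and 311 lower, and after quantile normalization it was −0.041, with 156 higher and 320 lower. The share of higher genes thus went from 85.2% to 32.5% and 32.8%, and no overall direction can be given.

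**Figure D2:**
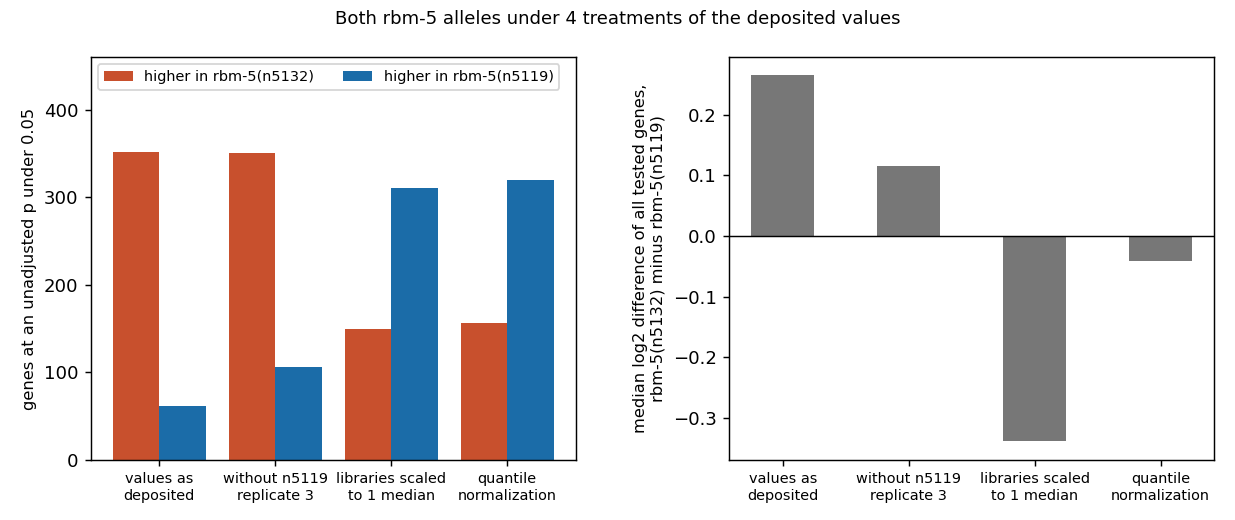
Genes at an unadjusted p under 0.05 in each direction (left) and the median log2 difference over all tested genes, rbm-5(n5132) minus rbm-5(n5119) (right), with the values as deposited, without rbm-5(n5119) replicate 3, after scaling to 1 median and after quantile normalization. The majority changes sides, from 352 higher against 61 lower to 150 against 311 and 156 against 320.

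The called gene, Y45G12B.3 (V:2688455–2696254, protein coding), was listed at 0 FPKM in 2 rbm-5(n5119) libraries and at 17.9, 11.8 and 10.9 FPKM in rbm-5(n5132). The third rbm-5(n5119) library did not list it singly, and wild type was at 41.8 and 16.45 FPKM. Its log2 difference was 3.83 (SE 0.42, adjusted p = 0.0432, limma), although an exact 0 can be a failed estimate and this fitted value depends on the pseudocount. In the double mutants the order was the opposite, with 10.8 and 13 FPKM beside n5119 and 0 in both libraries with n5132 that listed it (log2 −3.68, SE 0.46, adjusted p = 0.0417). The difference between these 2 contrasts was itself called (log2 7.51, SE 0.62, adjusted p = 0.00167). Leaving out any single rbm-5(n5132) library ended the call in the single mutants (log2 3.63 to 3.96, adjusted p from 0.0655 to 0.0896), as did a fit on these 6 libraries alone (adjusted p = 0.218).

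Of the 10 genes with higher values in rbm-5(n5132) given by the naming rule, none passed the adjusted threshold. Libraries without overlap were a condition of that rule, not a result. The smallest p belonged to nyn-1 (IV:13685076–13687015), which encodes a protein with the nuclease-like NYN domain. It was at 6.86, 9.01 and 11.7 FPKM in rbm-5(n5119) and at 22, 44.9 and 33.1 FPKM in rbm-5(n5132), with wild type at 7.72, 13 and 8.73 FPKM. The 3 rbm-5(n5132) libraries were therefore above all 6 of these others. The strain uaf-1(n4588), with rbm-5 intact, was also above them, at 21, 23.9 and 25.8 FPKM. The log2 difference was 1.72 (SE 0.29, adjusted p = 0.101), and it was called without rbm-5(n5132) replicate 1 (log2 1.99, adjusted p = 0.0413) and without rbm-5(n5119) replicate 3 (log2 1.90, adjusted p = 0.0376). Each of these was the library of its allele nearest to the other allele. Leaving it out widens the gap, so these calls lend no support to a difference. The double mutants kept the order with a smaller gap, 8.2, 9.04 and 8.03 FPKM against 10, 12.9 and 13.6 FPKM.

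The ribonuclease H homologue rnh-1.3 (I:9710088–9710745) was at 10.8, 11 and 8.22 FPKM in rbm-5(n5119) and 123, 85 and 98.8 FPKM in rbm-5(n5132). Wild type was at 30.3, 3.24 and 2.89 FPKM, so the rbm-5(n5132) libraries lay above these too. Its log2 difference was 3.22 (SE 0.74, adjusted p = 0.627, or 0.0358 when these 6 libraries were fitted alone), and the double mutants did not repeat it, at 17.2, 6.73 and 9.26 FPKM with n5119 and 2.33, 3.57 and 7.2 FPKM with n5132. For F40G9.12 (III:171847–172785) the values were 6.87, 12 and 12.3 FPKM against 37.1, 44.5 and 49.1 FPKM, with wild type in between at 12.8–25 FPKM (log2 1.999, SE 0.40, adjusted p = 0.319). T24D1.3 on chromosome I was at 1.26–2.83 FPKM in rbm-5(n5119) and 7.55–11.9 FPKM in rbm-5(n5132), and Y48G9A.11 on chromosome III at 2.92–4.72 and 8.33–12 FPKM. The remaining members of this group were cpar-1, a centromeric histone H3 variant (5.81–11.6 against 19.9–30.9 FPKM), the F-box gene fbxc-45 (5.12–5.56 against 9.89–15.1 FPKM), F46B3.7 (0.743 and 4.5 against 13–32.7 FPKM), E01A2.1 and swt-3. In uaf-1(n4588), with rbm-5 intact, T24D1.3 (10.5–13.9 FPKM), Y48G9A.11 (6–10.9 FPKM), cpar-1 (23.4–31.7 FPKM) and F46B3.7 (20.5–44.6 FPKM) overlapped the rbm-5(n5132) range. There F40G9.12 ranged over 10.7–42.6 FPKM, while rnh-1.3 (9.56–59 FPKM), fbxc-45 (6.4–8.46 FPKM) and swt-3 (10.1–17 FPKM) lay below rbm-5(n5132).

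In E01A2.1 and swt-3, 1 library of rbm-5(n5119) lay close to rbm-5(n5132). E01A2.1 (I:4139511–4142367) was at 62.4, 0 and 0 FPKM in rbm-5(n5119), at 80.2, 139.7 and 106 FPKM in rbm-5(n5132), and at 0 in all 3 wild-type libraries. All libraries with uaf-1(n4588), alone or with either allele, were at 61.5–107 FPKM. The sugar transporter gene swt-3 was at 16.49, 2.63 and 2.49 FPKM against 20.2, 26.3 and 24.1 FPKM. Both were called once rbm-5(n5119) replicate 1 was left out (log2 6.74, adjusted p = 8.44e-09, and log2 2.78, adjusted p = 0.0087). That was the library close to rbm-5(n5132), so these p-values lend no support to a difference.

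The 10 genes named with lower values in rbm-5(n5132) had adjusted p-values between 0.712 and 0.82. Of these, the largest log2 difference was at F25B3.2 (V:9577291–9580046), with 35.2, 38.5 and 43.4 FPKM in rbm-5(n5119) and 2.09, 1.28 and 1.03 FPKM in rbm-5(n5132) (log2 −4.04, SE 0.97, adjusted p = 0.712, or 0.0358 when these 6 libraries were fitted alone). In wild type 1 library was within the rbm-5(n5119) range and 2 lay just above the rbm-5(n5132) range, at 38.6, 2.25 and 2.58 FPKM, and all 6 double-mutant libraries were low, at 0.0685–4.02 FPKM. The regulator of G protein signalling rgs-5 showed a smaller gap repeated in the double mutants. It was at 58.3, 45.8 and 45.7 FPKM against 30.7, 34.7 and 30.3 FPKM (log2 −0.62, SE 0.21), and beside uaf-1(n4588) at 43.1, 33.6 and 42.7 FPKM against 32.1, 24.2 and 32.3 FPKM. K07E3.2 on the X chromosome did likewise, at 44–56.8 against 28.9–42.3 FPKM and 50.5–58.5 against 37.8–47.1 FPKM.

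ZK228.3 had the same order as well, at 12.8–16 against 8.26–9.52 FPKM and, in the doubles, 14.5 and 12.8 against 10.5–12.59 FPKM. The libraries of the double mutants overlapped for lin-13, a zinc-finger gene of the synthetic multivulva class (71.8–120 against 41.5–66.6 FPKM), gtf-2H1, a subunit of general transcription factor TFIIH (63.4–144 against 43.8 and 59.7 FPKM), and nape-2 (9.7–11.9 against 0–6.97 FPKM). The Argonaute gene sago-1 was at 20.8–33.4 against 6.84 and 15.9 FPKM, the cadherin gene cdh-4 at 80.1 and 90.4 against 30.9 and 39.4 FPKM, and the pseudogene Y92H12BR.4 at 6.85–95.4 against 1.05 and 6.43 FPKM.

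**Figure D3:**
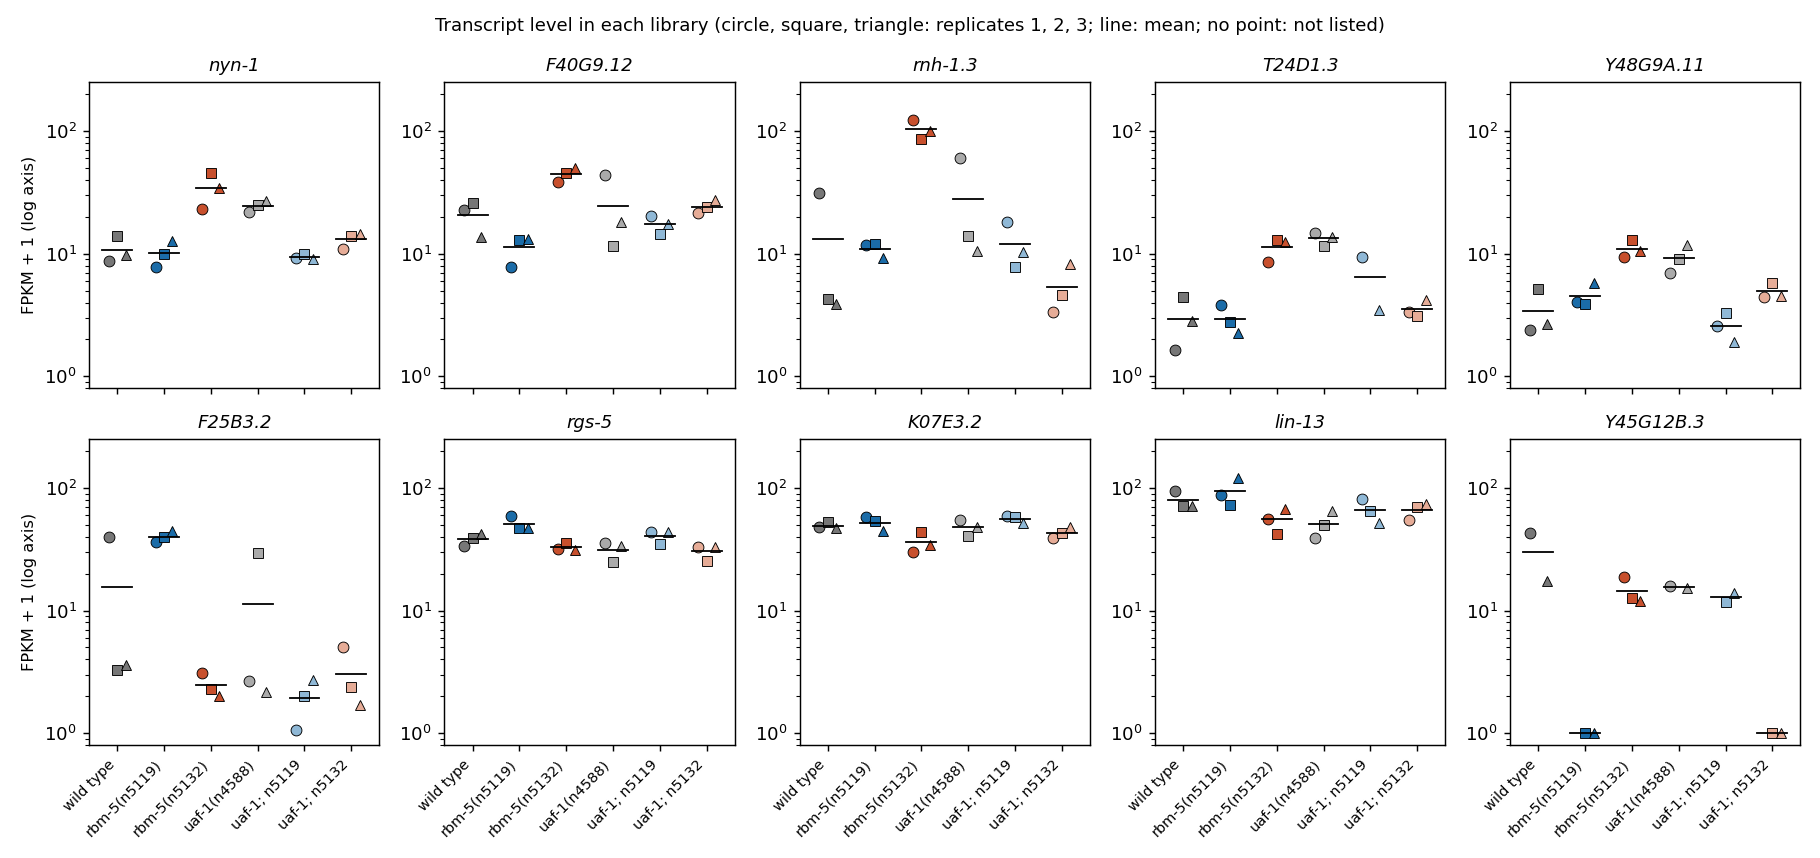
FPKM + 1 (log axis) of 10 genes in each library of the 6 strains. Points are libraries and black lines means, and a missing point means that the gene was not listed singly. In nyn-1, F40G9.12, rnh-1.3, T24D1.3 and Y48G9A.11 all rbm-5(n5132) points lie above all rbm-5(n5119) points, and in F25B3.2, rgs-5, K07E3.2 and lin-13 below them. Y45G12B.3 has the opposite order in single and double mutants.

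Among genes of the eggshell and the oocyte, 12 of 16 were tested, none was called, and all 12 had a log2 difference above 0 (median 0.74, against 0.26 over all genes, of which 72.2% were above 0). An unadjusted p under 0.05 was reached by 5 of the 12, where 4.85% of all tested genes reached it, and each of the 5 had an adjusted p of 0.82. Their libraries did not overlap, as was so for 10.4% of genes listed in all 6 libraries. They were chs-1 (chitin synthase, 1.81–3.13 against 4.14–9.35 FPKM), the egg surface genes egg-1 (2.04–4.32 against 6.77–23.7 FPKM) and egg-2 (2.93–7.68 against 9.35–13.4 FPKM), the chondroitin proteoglycan gene cpg-2 (15.2–29.3 against 44.2–75.3 FPKM) and rme-2, the yolk receptor (1.36–2.7 against 5.15–7.31 FPKM). Summed over the 10 members listed in all 9 libraries, this list was at 55–120 FPKM in rbm-5(n5119), 155–210 FPKM in rbm-5(n5132) and 43.4–129 FPKM in wild type. The list's median was 0.12 with the libraries scaled to 1 median, where that of all genes was −0.34, and 0.52 after quantile normalization, where that of all genes was −0.041. In the double mutants chs-1 and egg-1 did not show that order, at 3.68–8.36 against 2.26–3.94 FPKM and 4.07–15.1 against 2.74–6.63 FPKM.

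The library rbm-5(n5119) replicate 3 was the highest or lowest of the 9 libraries in 9 stage and tissue lists. It had the highest sum for maternal RNA-binding proteins (3461 FPKM, against 517–2465 in the other 8), germline and P granule genes (511, against 186–462) and early zygotic genes (612, against 251–586). It had the lowest sum for body-wall muscle (1049, against 1101–2636), pharynx (78.4, against 165–422), intestine (268, against 502–1108), epidermis (274, against 365–580), cuticle collagens (102, against 215–889) and neurons (187, against 243–363). The part of this in the allele differences was not tested. Without that library the median log2 difference of the pharynx list went from 1.21 to 0.33. Sperm and yolk genes, which mark adult tissue, were close to 0, with none of 28 and none of 6 members tested, summed levels of 0.218–0.972 FPKM over 4 sperm genes and 0.330–4.25 FPKM over 5 vitellogenin genes in the 9 libraries, and at least 1 sperm gene at 0 throughout in each strain.

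**Figure D4:**
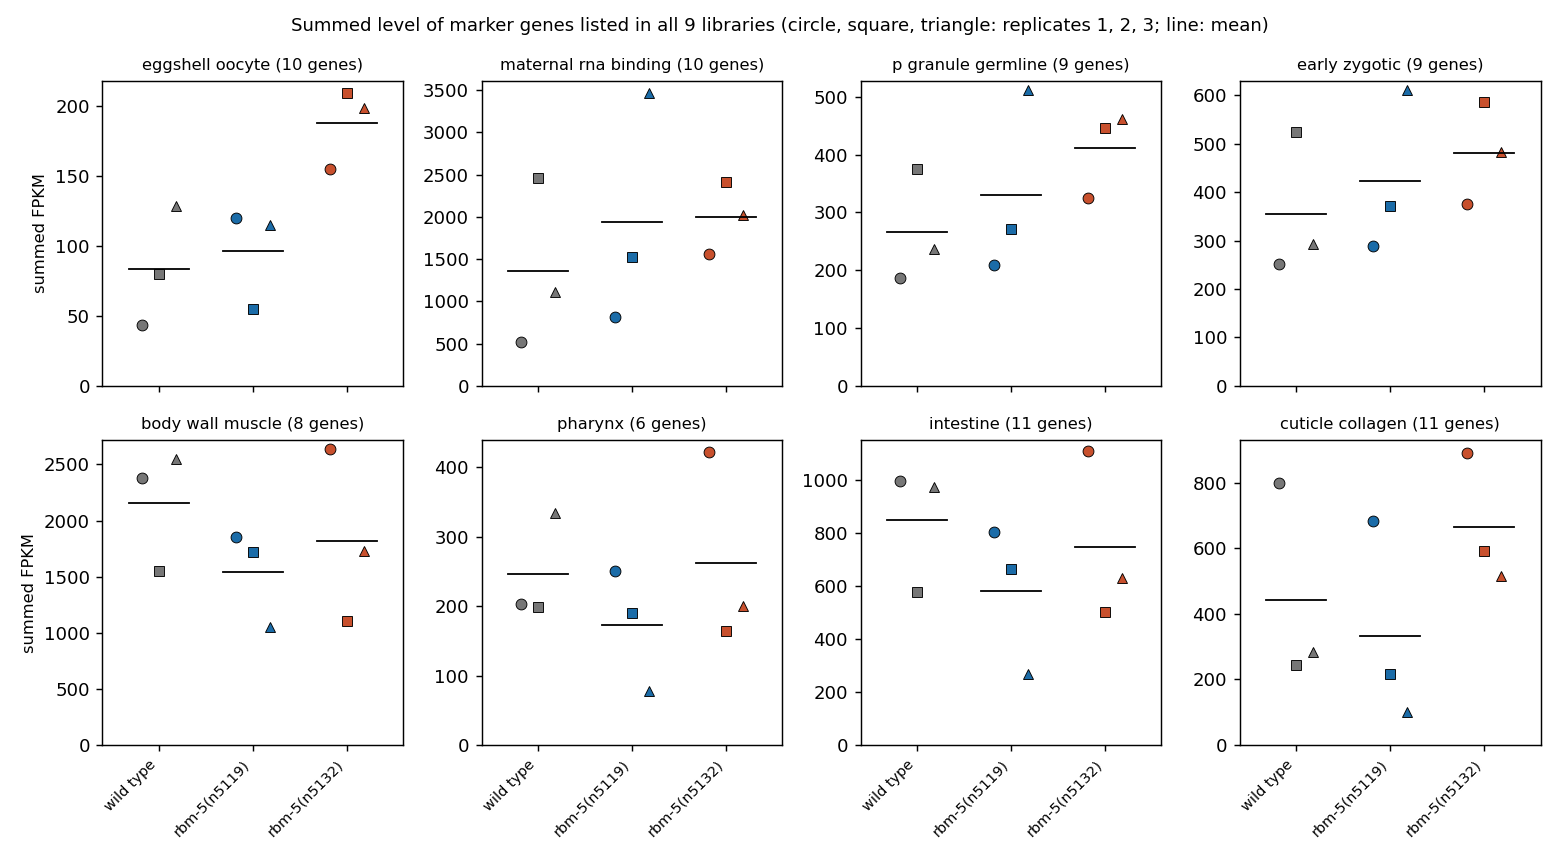
Summed FPKM of 8 marker lists in the libraries of wild type, rbm-5(n5119) and rbm-5(n5132), over the members listed in all 9 libraries. Points are libraries and black lines means. The rbm-5(n5119) replicate 3 library (triangle) is highest for maternal, germline and early zygotic genes and lowest for muscle, pharynx, intestine and cuticle, and the eggshell list is the 1 shown here in which no rbm-5(n5132) library falls within the range of rbm-5(n5119) and wild type.

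The counts that follow stand against the 4.85% of all tested genes at an unadjusted p under 0.05. For pharynx, 8 of 8 genes were tested and none called, and 1 had an unadjusted p under 0.05: myo-2, the pharyngeal myosin (14.1 and 1.58 against 24.4 and 24.9 FPKM). For body-wall muscle it was also 1 of 17, mup-2 (troponin T, 0–286 against 136–526 FPKM), while the actin act-4 was at 578–909 and 453–1461 FPKM. For germline genes it was 2 of 14, the helicase gene glh-1 (11–25.2 against 29–41.3 FPKM) and the P granule gene pgl-3 (2.51–6.87 against 8.74–11.9 FPKM). No member of the maternal, early zygotic, intestine, epidermis, cuticle or neuron list did so (0 of 12, 13, 11, 9, 6 and 12 tested). Examples are pos-1 (249–1212 against 571–985 FPKM), pes-10 (56.8–138 against 97.7–143 FPKM), cpl-1 (97.5–185 against 143–269 FPKM) and unc-119 (110–165 against 78.8–166 FPKM). Of heat-shock genes 5 were tested and none reached an unadjusted p under 0.05, and hsp-16.41 ranged over 35.8–959 FPKM in one allele and 171–2086 FPKM in the other.

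For the splicing machinery, none of 6 tested genes of the U2AF and branch-point group, 15 core spliceosome genes, 17 splicing regulators, 3 trans-splicing genes and 8 genes of nonsense-mediated decay was called or had an unadjusted p under 0.05. The list medians were −0.053, −0.086, 0.21, −0.20 and −0.091, against 0.26 over all genes. With the libraries scaled to 1 median they were −0.75, −0.89, −0.49, −0.90 and −0.88, against −0.34. Here too rbm-5(n5119) replicate 3 was the highest of the 9 libraries in the summed level of splicing regulators (2293 FPKM), trans-splicing genes (269 FPKM) and decay genes (247 FPKM), and its part was not tested. The large U2AF subunit gene uaf-1 was at 190, 193 and 236 FPKM in rbm-5(n5119) and 156, 173 and 164 FPKM in rbm-5(n5132), so the libraries did not overlap, and wild type was at 124, 218 and 185 FPKM. Its log2 difference was −0.32 (SE 0.25, 95% interval −0.86 to 0.22, adjusted p = 0.826, limma). The splicing factor SF3B1 homologue sftb-1 was at 97.2–102 and 94.6–101 FPKM, and prp-9 at 160–201 and 154–201 FPKM.

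Neither unc-93 nor tos-1, used in earlier genetics of uaf-1, was called. The potassium channel regulator gene unc-93 was at 3.39, 4.2 and 0.726 FPKM against 8.17, 3.03 and 5.43 FPKM (log2 0.86, SE 0.68, adjusted p = 0.826). Values of tos-1 included zeros in both alleles, with 25, 39 and 0 against 0, 60.8 and 78.3 FPKM (log2 0.75, SE 1.53, adjusted p = 0.912), and its sign turned without rbm-5(n5119) replicate 3 (log2 −0.93) and without rbm-5(n5132) replicate 2 or 3. The tos-1 exon V:9343501–9343567, whose inclusion was 0.403–0.687 in uaf-1(n4588), was at 0.884, 1 and 1 in rbm-5(n5119) and 1, 0.820 and 0.709 in rbm-5(n5132). Both forms of this exon together averaged 89.1 FPKM in rbm-5(n5119) and 281 FPKM in rbm-5(n5132). The mean start levels of tos-1 were lower, at 21.3 and 46.4 FPKM, so the start rows may not hold its whole level. The libraries at 0 by starts had a share for this exon, so that 0 was not absence of tos-1. An intron of uaf-1 itself (III:1074362–1074438) was retained with a share of 1 in all 6 libraries of both alleles, against 0.687, 0.633 and 0.698 in wild type (difference between the single mutants log2 0.12, SE 1.71, adjusted p = 0.999). It was also at 1 in the 3 libraries of uaf-1(n4588), where rbm-5 is intact, and at 0.308–1 and 0.682–1 in the double mutants with n5119 and n5132.

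No splicing event was called between the alleles. Of 2967 events tested, 0 passed an adjusted p under 0.05 in limma (0%), and 155 (5.22%) had an unadjusted p under 0.05, of which 74 had more of the inclusion form in rbm-5(n5132) and 81 less. The smallest adjusted p was 0.140. The 95% interval had a median half-width of 1.67 on the log2 scale of the form ratio, and the interval lay within 1 log2 unit for 171 events (5.76%). Of 2942 events with a share in both alleles, the mean share differed by under 0.1 in 1950 (66.3%), by 0.2 or more in 358 (12.2%) and by 0.5 or more in 28 (0.952%). Among 2090 events with a share in all 6 libraries, shares did not overlap in 114 (5.45%), with rbm-5(n5132) higher in 51 (2.44%) and lower in 63 (3.01%). By type, 40 of 861 skipped exons (4.65%), 24 of 224 groups of adjacent skipped exons (10.7%), 28 of 617 retained introns (4.54%), 63 of 1255 alternative exon ends (5.02%) and 0 of 10 groups of introns had an unadjusted p under 0.05. Of these retained introns, whose share was below the 5.22% of all events, 4 were more and 24 less retained in rbm-5(n5132). Skipped exons were at 25 and 15, groups of exons at 14 and 10 and exon ends at 31 and 32. These splits were not tested.

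The smallest adjusted p, 0.140, was shared by 5 events, 4 of which had a change in share of at least 0.2, and in these 4 a form was at 0 in all 3 libraries of one allele. A 36-base exon of ampd-1, the AMP deaminase gene (II:5204670–5204705), was included with a share of 0.694, 0.295 and 0.208 in rbm-5(n5119) and 0 in each rbm-5(n5132) library, at 15.8–58.4 FPKM for both forms together. Wild type was at 0.684, 0.346 and 0.484, so rbm-5(n5132) was the strain that lay off it. In the double mutants the libraries overlapped, at 0.465, 0.277 and 0.197 with n5119 and 0, 0 and 0.199 with n5132. The log2 ratio difference was −4.68 (SE 0.98) in the single and −3.001 (adjusted p = 0.786) in the double mutants.

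An exon of lea-1 (V:10025535–10025711), a gene of the late embryogenesis abundant family, went the other way. It was at 0 in all rbm-5(n5119) libraries and at 0.250, 0.381 and 0.359 in rbm-5(n5132), with wild type at 0, 0 and 0.191 (log2 3.11, SE 0.64). Beside uaf-1(n4588) the same exon was at 0 in the 3 libraries with n5119 and at 0.246, 0.237 and 0 in those with n5132 (log2 1.74, adjusted p = 0.864). For pcyt-2.1, an enzyme gene of phosphatidylethanolamine synthesis, a group of exons (I:2081956–2082075) was at 0 in rbm-5(n5119) and 0.311, 0.235 and 0.294 in rbm-5(n5132), with wild type at 0.328, 0 and 0. All libraries with uaf-1(n4588) lay higher, at 0.480–0.646, with no allele difference (log2 0.12). An exon of F49E2.5 (X:9555799–9556353) was at 0.532, 0.562 and 0.591 in rbm-5(n5119) and 0 in rbm-5(n5132), but wild type was at 0.238, 0 and 0, and total FPKM was as low as 2.23 in rbm-5(n5119) replicate 3.

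The next events had adjusted p-values from 0.713 to 0.888. An intron of mig-15, a Ste20-like kinase gene (X:10425924–10425970), was retained with a share of 1 in each rbm-5(n5119) library and 0.833, 0.246 and 0.793 in rbm-5(n5132), with wild type at 1, 0.586 and 1. A group of exons of let-805, the epidermal adhesion gene for myotactin (III:2679413–2679994), was included at 0.362, 0.373 and 1 against 1 in each rbm-5(n5132) library. The exon of the ABC transporter gene mrp-5 (X:14942805–14942885) was skipped in part only in rbm-5(n5119), at 1, 0.744 and 0.604, while the other 15 libraries were at 1. The palmitoyltransferase gene dhhc-4 had an exon (III:9864306–9864559) at 0.639, 0.341 and 0.352 against 0.664, 0.794 and 0.824, and wild type at 0.686–0.769 sided with rbm-5(n5132). Calls appeared for 4 of the named events when 1 library was left out: let-805 without rbm-5(n5119) replicate 3 (log2 5.68, adjusted p = 0.0247), mrp-5 without its replicate 1 (log2 4.96, adjusted p = 2.89e-06), pezo-1 without rbm-5(n5132) replicate 3 (log2 4.80, adjusted p = 0.000149) and the Y48E1C.1 locus without replicate 2 (log2 −3.66, adjusted p = 0.0459). In each of these 4 the library left out was the one whose share equalled that of the other allele. Its removal fixes the outcome, so these p-values lend no support to a difference. An exon of the Piezo channel gene pezo-1 (IV:9349901–9349978) was seen in 2 rbm-5(n5132) libraries, at 0.463 and 0.301, and was at 0 in the other 16.

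The last 6 events are given in brief. A group of exons of the guanylate cyclase gene gcy-31 was at 0–0.780 against 1 in each rbm-5(n5132) library, at a mean of 1.91 and 2.23 FPKM. The intron X:4535320–4535368 of the nuclear receptor gene nhr-35 was at 0.484 and 0.486 against 0.221 and 0.140. Exon ends of AH9.6, C32E12.4 and the locus of plc-1 and frm-9 were at 0.309–0.550 against 0, at 0.597–1 against 1, and at 0.375–0.574 against 0.661–1. Exons in the locus of Y48E1C.1 and Y48E1C.2 were at 1 in rbm-5(n5119) and 0.604–1 in rbm-5(n5132).

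**Figure D5:**
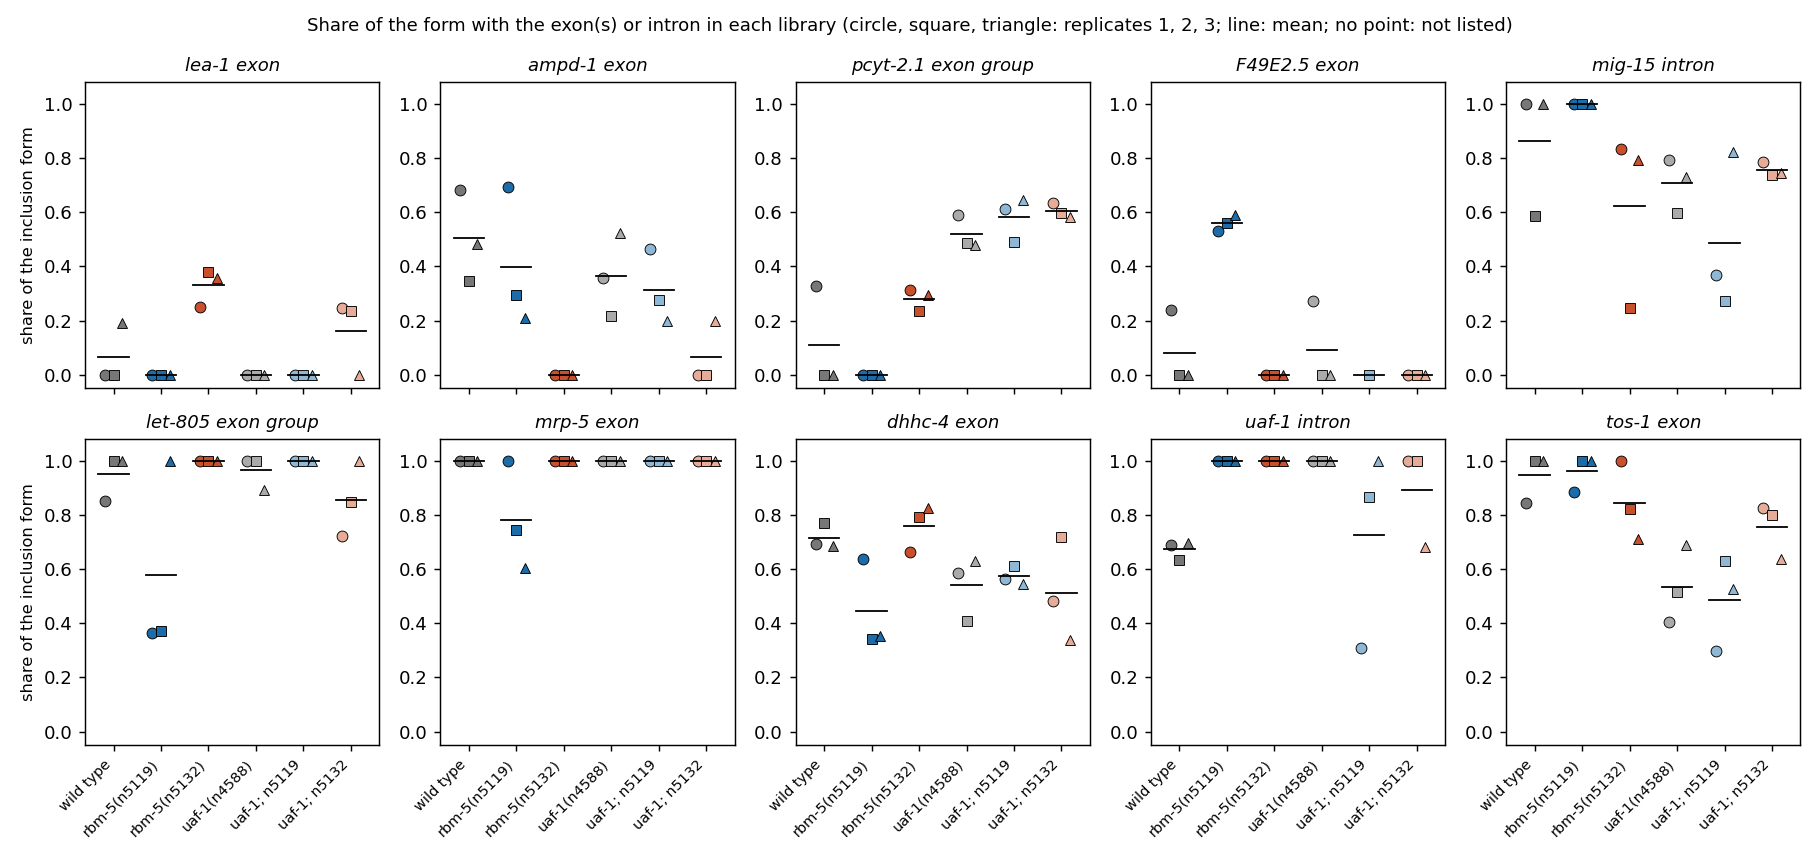
Share of the form with the exon, exon group or intron in each library of the 6 strains for 8 of the events named between the alleles and for the uaf-1 intron and tos-1 exon. Points are libraries and black lines means, and a missing point means that the event was not listed. The ampd-1 exon is at 0 in all rbm-5(n5132) libraries, the lea-1 exon in all rbm-5(n5119) libraries, and the uaf-1 intron is at 1 in both alleles.

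The double mutants gave a second comparison of the alleles. Its means come from other libraries than those of the single mutants, while both tests share 1 estimate of spread over all 18 libraries. There, 4 of 8061 genes (0.0496%) and 0 of 3234 events (0%; 146 at an unadjusted p under 0.05) were called by limma. The allele difference with uaf-1 intact differed from that beside uaf-1(n4588) for 4 of 7496 genes (0.0534%) and for 0 of 2596 events (0%; 95 at an unadjusted p under 0.05). Of 381 genes listed in all 12 libraries whose rbm-5(n5132) values lay above rbm-5(n5119) without overlap, 17 (4.46%) did so again in the double mutants and 12 (3.15%) did the reverse, where 3.52% of all 4434 genes lay on that side. Of 71 that lay below, 12 (16.9%) did so again and 3 (4.23%) the reverse, where 3.97% of all genes did. A further contrast, the allele difference averaged over both backgrounds, was added after the data had been seen. It called 1 of 7496 genes (0.0133%) and 0 of 2596 events (0%; 162 at an unadjusted p under 0.05) in limma. Without adjustment, p was under 0.05 for 561 genes. The called gene, C07D10.6, was at 0 in all 6 single-mutant libraries. Next by p came C34C12.7 (log2 −1.83, adjusted p = 0.0739) among genes and ampd-1, lea-1 and F49E2.5 (adjusted p = 0.104 each) among events. Among events the non-overlapping counts were 2 of 40 (5%) and 4 of 43 (9.3%), against 2.29% and 2.13% of 1832 events, and 1 and 2 did the reverse. The 2 events on the higher side, exon ends of rga-4 and T12G3.2, are the mirrored forms of 2 of the 4 on the lower side.

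Genes with the same order in both backgrounds, picked after their values were seen, include sdz-27, a zygotic gene named for its dependence on SKN-1. It was at 51.8–102 against 109–164 FPKM in the single and 46.6–77.1 against 107–116 FPKM in the double mutants. The cytochrome P450 genes cyp-35A3 (2.65–6.03 against 6.21–42.8 FPKM, then 3.34–7.73 against 14–26.6 FPKM) and cyp-35C1 (8.46–22.9 against 24.4–88.1 FPKM, then 15–27.5 against 37.3–46.4 FPKM) were higher with n5132 in both, and wild type reached 17.6 and 50.7 FPKM. C34C12.7 (III:3484773–3488341) was listed at 0 in all 6 libraries that carry n5132. It was at 3.89, 3.26 and 0.460 FPKM in rbm-5(n5119), at 4.34, 5.29 and 5.77 FPKM in wild type, and above 0 in each of the other 6 libraries (1.54–4.83 FPKM). Its difference between the single mutants was not called (log2 −1.64, adjusted p = 0.768, limma). A call appeared with a pseudocount of 0.1, without rbm-5(n5119) replicate 3 and under either scaling of the libraries. Here too an exact 0 can be a failed estimate, and the fitted value depends on the pseudocount. The ubiquilin gene ubql-1 had the fifth event with an adjusted p of 0.140, the intron I:7022446–7022501, with the intron form at a share of 1 in rbm-5(n5119), 1, 0.813 and 1 in wild type, and 0.878, 0.859 and 0.821 in rbm-5(n5132), and beside uaf-1(n4588) at 0.690–0.777 against 0.595–0.619.

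Which events a library lists is a further readout. With both forms together at 1 FPKM or more, 72 events appeared in each list of rbm-5(n5132) and in none of rbm-5(n5119), and 52 the other way round. For scale, each of the 6 libraries listed 1771–2213 retained introns at that minimum. The number of different events over the 6 lists was not counted, nor was the share of them with such a pattern in the double mutants. No excess can therefore be read from the counts here. Of the 72, 29 were retained introns, 27 exon ends and 13 skipped exons, and 3 kept the pattern in the double mutants (listed in at least 2 libraries of one double mutant and in none of the other). These were both acceptor versions of the rbm-5 intron and an intron of F56A8.3. Of the 52, 6 kept it: introns of ltah-1.1 (with a pair of acceptors), ima-1 and Y57A10A.6 and exons of tag-343 and T26C11.4. Of these 9, the versions of the rbm-5 intron were the 2 that no library of wild type or uaf-1(n4588) listed, and the Y57A10A.6 intron was listed in rbm-5(n5132) replicates 2 and 3 below 1 FPKM. The ima-1 intron (V:11241073–11241119) had a share of 1, 0.542 and 0.589 in rbm-5(n5119), was not listed in wild type or with n5132, and was listed in 2 uaf-1(n4588) libraries.

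Alternative exon ends numbered 2249, 2270 and 2004 in rbm-5(n5119) and 2415, 2443 and 2415 in rbm-5(n5132), without overlap, and 2327, 2248 and 2293 in wild type. The difference between the means, 2174 and 2424, had an exact two-sided permutation p of 0.1, the smallest that this design allows, and 0.7 after adjustment over 7 event types. Skipped exons numbered 1360.0 ± 49.4 and 1416 ± 41.4 (SD, n = 3 each, exact p = 0.3), and retained introns 2067 ± 221 and 2042 ± 61.6 (exact p = 1).

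Genes and events at an unadjusted p under 0.05 were counted per chromosome. On chromosome I, which carries rbm-5, they made up 46 of 1348 genes (3.41%) and 18 of 507 events (3.55%). On the other chromosomes the shares were 4.76–5.72% of genes and 4.06–7.38% of events.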

How the data were processed

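The authors deposited 1 event list per library with FPKM values, per the file headers, and no step of scaling between libraries is stated. Reads were mapped with TopHat2 2.0.12 and Bowtie2 to WBcel235, per the submitters' processing notes. The assembler and event caller are not given in the sources used here. Of 20574 labels that name 1 gene, 17488 were found as symbols in Ensembl annotation 115, 2221 as a sequence or older name, 5 were restored from dates and 860 had no match.

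A gene's level was the summed FPKM of start rows of loci naming that gene alone. The share of an event was inclusion over inclusion plus exclusion, and for alternative exon ends exclusion was the other forms that share the opposite end. Events were matched by coordinates, and exon-end pairs give mirrored events. Approximate event rows were not used. Whole reads could not be recovered from the FPKM values, so depth is unknown. limma 3.58.1 in R 4.3.3 was fitted to log2(FPKM + 1), with an intensity trend, or to log2((inclusion + 1)/(exclusion + 1)), without one. All 18 libraries entered with 1 mean per strain. Tests covered items with values in 2 or more libraries of each strain and a mean of at least 1 FPKM. They were two-sided, with Benjamini-Hochberg adjustment within a contrast and a threshold of 0.05. The fit was tested on simulated data. Tables and plots used Python 3.11.15 with pandas 2.3.3, numpy 2.4.6 and matplotlib 3.10.9.

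Named were rbm-5 with uaf-1, tos-1 and unc-93, up to 10 genes per direction (called first, then smallest p, at least 5 FPKM in the higher strain, no overlap, not 0 throughout), up to 15 events (1 per gene, change in share of at least 0.2), called genes outside these conditions, and up to 3 abundant members per list. Other genes, list members at an unadjusted p under 0.05 and the panels of the plots were picked with their values known. The members compared, the 18 gene lists and the tests were chosen with earlier results of these data known. The contrast averaged over both backgrounds, the counts repeated in the double mutants, the events listed for one allele alone and the alternatives without items at 0 throughout a strain were added after seeing the data. The averaged contrast had at one stage been set aside after its result was known and was then restored. Other alternatives covered filters, pseudocounts, scaling, libraries left out and the share scale.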

Additional observations from a re-analysis of the deposited data

Results flagged for a closer look

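For 4 genes the allele difference with uaf-1 intact differed from that beside uaf-1(n4588), by the limma contrast of both differences. C07D10.6 (log2 −6.96, SE 0.31, adjusted p = 3.75e-08) was listed at 0 in every library except 2 of the double mutant with n5132, at 109 and 139 FPKM, and was not listed singly in the remaining one. For Y45G12B.3 (log2 7.51, SE 0.62, adjusted p = 0.00167) the values stand with its call between the single mutants. E01G4.5 (II:13472401–13473995; log2 3.40, SE 0.47, adjusted p = 0.0365) was at 14, 31.1 and 27.8 FPKM in rbm-5(n5119) and 43.5 and 50.7 FPKM in rbm-5(n5132). The double mutant carrying n5119 had 324 and 268 FPKM and the one carrying n5132 had 42.9, 66.3 and 57.6 FPKM, while uaf-1(n4588) alone was at 266 and 318 FPKM. Y37E3.30 (I:2149825–2151826; log2 2.99, SE 0.49, adjusted p = 0.0442) was at 16, 30.2 and 34 against 31.3, 63.5 and 52 FPKM in the single mutants and at 366, 185 and 226 against 56.8, 56.1 and 55.3 FPKM in the double mutants, with uaf-1(n4588) at 289–311 FPKM. C07D10.6, Y45G12B.3 and E01G4.5 each lack a value in at least 1 library, so a test limited to genes listed in all 3 libraries of each strain leaves them out.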

How the results depend on the processing

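The count of 1 called gene between the single mutants was 0 with no filter on low values, with a mean of at least 5 FPKM, with a pseudocount of 5, with listing in all 3 libraries and (added after seeing the data) without genes at 0 throughout a strain. It was 3 with a pseudocount of 0.1, 5 with only these 6 libraries fitted, 9 with replicates 2 and 3 only, 2 with either scaling of the libraries, and 1 to 7 with 1 library left out. The 0 called events became 3 with only these libraries, 13 with replicates 2 and 3, 2 on the share scale and 0 to 6 with 1 library left out. In the double mutants the 4 called genes became 8 with no filter, 2 with only their libraries, 9 with replicates 2 and 3, 0 with listing in all 3 libraries or from end rows, 2 with no intensity trend and 1 to 4 with 1 library left out. The 0 events became 1, 3 and 1 with only their libraries, replicates 2 and 3 and the share scale, and 0 to 2 with 1 left out. The 4 genes whose allele difference depended on the background became 11 with replicates 2 and 3, 0 with listing in all 3 (which leaves 3 of the 4 untested), 2 from end rows or with no trend, and 0 to 6 with 1 left out, and the 0 events became 3 with only the contrast's libraries, 6 with replicates 2 and 3, 1 on the share scale and 0 to 4 with 1 left out. For the difference averaged over backgrounds, the 1 gene became 4 with no filter, 2 with a pseudocount of 0.1, either scaling or no trend, 6 with replicates 2 and 3, 0 with listing in all 3 or from end rows and 0 to 4 with 1 left out, and the 0 events became 3 with only its libraries, 13 with replicates 2 and 3, 1 on the share scale and 0 to 5 with 1 left out. The cause of these moves was not tested, beyond the fewer genes or samples that some settings hold.

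With 1 library left out, the difference in listed events, n5132 minus n5119, ran from 165 to 298 for exon ends, from −94.3 to 102 for retained introns, from −33.2 to −3.67 for groups of introns, from −3 to 14.7 for groups of exons, from 27.2 to 79.5 for skipped exons, from −18.5 to 252 for starts and from −19.2 to 238 for ends. The rbm-5 level turned to log2 −0.60 with replicates 2 and 3, −0.64 with the median scaling and −0.17 after quantile normalization, and ran from −0.49 to 0.36 with 1 library left out (−0.058 without rbm-5(n5119) replicate 1). The tos-1 level ran from log2 −0.93 to 2.79 with 1 left out, also turning at −0.19 and −0.37.

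Same-numbered libraries of the alleles correlated in their deviations at 0.260, −0.132 and 0.234 across 9870 genes. Pairs with different numbers ran from −0.410 to 0.270, so the numbers were not taken to pair single libraries. Replicate 1 still shared a trait across the strains. Its 10 highest starts held 21.3–43.7% of summed start FPKM, against 7.57–11.8% in replicates 2 and 3. The correlations do not address that trait, and how far it enters the allele differences was not tested. With the replicate number as a block, 0 genes and 0 events were called between the single mutants and 1 gene between the double mutants.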
